A study of Mus musculus with 9 samples.

Results

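The transcripts of 8 acinar identity transcription factors were followed in the pancreas of 9 mice: Ptf1a, Rbpjl, Rbpj, Nr5a2, Bhlha15, Gata4, Gata6 and Foxa2. Each was taken by its symbol from a table of 46078 genes, all 8 were found once, and all 8 were tested, along with the rest of the 11953 genes whose mean over the libraries reached 10 normalized counts. A normalized count is the number of reads assigned to a gene divided by 1 size factor per library. The mice were 8 weeks old and fell into 3 groups of 3: S6k2_RK, which carries an S6k2 allele labelled RK, Snd1_KI, which carries a knock-in at Snd1, and their wild-type littermates (WT). The labels name no zygosity, sex or base change, which are thus not given in the sources used here. Whole frozen pancreas was powdered, and polyA RNA was sequenced as strand-specific libraries with 13461427 to 21034501 reads assigned to genes. Of the targeted transcripts, Rps6kb2 (for the mTOR pathway kinase S6K2) had 35.4 ± 17.8 normalized counts in S6k2_RK and 43.8 ± 8.24 in Snd1_KI, against 57.9 ± 6.83 in WT. Neither difference passed the main test. The S6k2_RK log2 fold change of -0.79 (limma adjusted p = 0.0772) was called lower in 5 of 21 alternative analyses. Those were limma and edgeR without S6k2_RK replicate 1, array weights, equal totals, and libraries scaled on acinar secretory genes. The Snd1_KI value was called in 0 of 21. Snd1 (for a Tudor-domain protein) had 2801 ± 433 in S6k2_RK and 2903 ± 244 in Snd1_KI, against 1993 ± 162 in WT (mean ± SD, n = 3 each). Under the authors' scaling Snd1 was called higher in both mutants (log2 fold changes 0.48, limma adjusted p = 0.0115, in S6k2_RK and 0.54, adjusted p = 0.0101, in Snd1_KI), whereas with each library set to an equal total count it stood at -0.039 and 0.26, neither called. Since the labels do not say how either allele alters the transcript, these levels do not check the labels.

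Acinar cells make and secrete digestive enzymes, and a small circuit of transcription factors keeps them in that state. Its core is PTF1, a complex of the basic helix-loop-helix (bHLH) protein PTF1A, an E protein such as TCF3, and an RBPJ-type protein that reads an adjoining part of the binding site. In the embryonic mouse pancreas this RBPJ-type subunit is RBPJ itself, the factor that also mediates Notch signalling, and in mature acinar cells it is largely replaced by the acinar paralogue RBPJL, whose gene is itself a PTF1 target. NR5A2 is a nuclear receptor that works with PTF1 at enzyme genes, BHLHA15 (Mist1) drives the secretory architecture of the cell, and GATA4, GATA6 and FOXA2 are endodermal factors that are needed for pancreas formation.

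The stretches upstream of Rbpjl, Ptf1a and Nr5a2, the 3 members with the smallest adjusted p against WT, are shown first, since PTF1 sites join an E-box to an RBPJ-type core. RefSeq (GRCm38.p6) promoter windows were used for 6 of the 8 members, 10 windows in all. Each has 250 bases and ends at the base before a transcript start. Gata4 and Gata6 had no entry. The windows are Rbpjl at chr2:164402944-164403193 (plus strand), Ptf1a at chr2:19445413-19445662 (plus strand), and Nr5a2 at chr1:136953631-136953880 and chr1:136960449-136960698 (minus strand, 2 starts). Capitals mark the E-box CANNTG, the RBPJ core TGGGAA and the GATA core GATAA on either strand, and on the other strand the RBPJ core reads TTCCCA and the GATA core TTATC.
Rbpjl: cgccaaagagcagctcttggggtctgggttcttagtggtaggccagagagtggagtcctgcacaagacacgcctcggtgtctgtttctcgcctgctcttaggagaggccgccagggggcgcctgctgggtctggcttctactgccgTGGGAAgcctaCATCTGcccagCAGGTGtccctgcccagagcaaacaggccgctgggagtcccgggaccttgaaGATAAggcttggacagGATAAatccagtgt
Ptf1a: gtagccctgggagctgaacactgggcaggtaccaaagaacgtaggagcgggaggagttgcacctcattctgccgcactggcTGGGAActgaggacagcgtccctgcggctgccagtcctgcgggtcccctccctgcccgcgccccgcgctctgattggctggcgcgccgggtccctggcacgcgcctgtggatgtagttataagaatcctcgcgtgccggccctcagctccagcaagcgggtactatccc
Nr5a2 start 1: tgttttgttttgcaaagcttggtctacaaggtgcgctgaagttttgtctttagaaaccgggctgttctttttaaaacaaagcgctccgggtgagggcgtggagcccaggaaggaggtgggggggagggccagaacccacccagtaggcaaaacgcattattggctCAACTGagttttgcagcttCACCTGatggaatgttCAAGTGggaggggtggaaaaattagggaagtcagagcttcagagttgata
Nr5a2 start 2: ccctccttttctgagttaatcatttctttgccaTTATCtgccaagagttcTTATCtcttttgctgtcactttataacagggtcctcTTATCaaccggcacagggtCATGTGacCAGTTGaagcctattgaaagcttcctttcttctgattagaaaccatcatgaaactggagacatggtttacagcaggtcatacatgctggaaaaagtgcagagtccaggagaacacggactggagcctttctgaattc
The Rbpjl window holds 1 RBPJ core at -104 to -99 from the start, followed by E-boxes at -93 to -88 and at -82 to -77, and GATA cores at -30 to -26 and -14 to -10. The Ptf1a window holds an RBPJ core at -169 to -164 and neither of the other motifs, and the Nr5a2 windows hold 3 and 2 E-boxes and no RBPJ core. Over 32851 such windows of the table, 66.2% held an E-box, 21.6% an RBPJ core, 22.6% a GATA core, 14.8% an E-box and an RBPJ core, and 3.46% all 3 kinds. Of the 10 member windows used, only that of Rbpjl held all 3 kinds. The GENCODE start of Rbpjl, 164403141, lies inside that window, and its GATA cores fall downstream of it. The Rbpj window at start 1 held 2 E-boxes and 2 RBPJ cores. The window at start 2 of Rbpj, which overlaps it, held 1 RBPJ core and 1 GATA core. The FOXA letters TGTTTAC (3.17% of windows), the NR5A letters CAAGGTCA (1.33%) and the CATATG form of the E-box, which is also counted under CANNTG (3.46%), were not found in the windows of the members. These are letter matches in 1 short window, with no measurement of binding behind them.

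**Figure D1:**
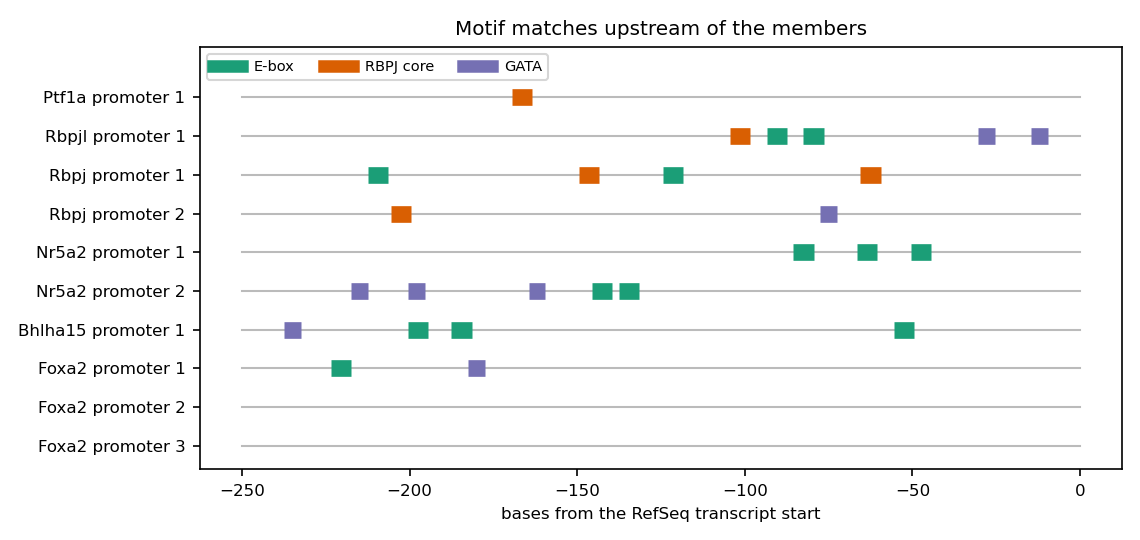
Positions of motif matches in the 250 bases upstream of each RefSeq start of the 6 members with an entry (x axis, bases from the transcript start). Boxes stand for E-box, RBPJ core and GATA matches on either strand, and the Rbpjl window is the 1 window in which all 3 kinds occur.

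In WT pancreas the members spanned a wide range of levels, compared here per kilobase of exon because the genes differ in length. Bhlha15 (ENSMUSG00000052271, chromosome 5, 144190286 to 144194441, plus strand, GRCm38) was the most abundant at 766 ± 94.5 normalized counts per kilobase, above 98.2% of tested genes. Ptf1a (ENSMUSG00000026735, chromosome 2, 19445663 to 19447501, plus strand) followed at 209 ± 22.9, and Rbpjl (ENSMUSG00000017007, chromosome 2, 164403141 to 164415448, plus strand) at 136 ± 14.0 (mean ± SD, n = 3 each). Nr5a2 (ENSMUSG00000026398, chromosome 1, 136842571 to 136960448, minus strand), Foxa2 (ENSMUSG00000037025, chromosome 2, 148042877 to 148046969, minus strand) and Gata4 (ENSMUSG00000021944, chromosome 14, 63198922 to 63271692, minus strand) stood at 72.5 ± 6.70, 60.1 ± 20.5 and 59.3 ± 10.6, and the WT libraries of these 3 overlapped. Gata6 (ENSMUSG00000005836) had 15.9 ± 1.80 and Rbpj (ENSMUSG00000039191, chromosome 5, 53466152 to 53657362, plus strand) 9.57 ± 0.665 normalized counts per kilobase. Rbpj thereby lay above only 27.3% of tested genes. The order of Ptf1a and Rbpjl depended on the gene model: per kilobase of the longest coding transcript, Rbpjl had 317 ± 32.6 and Ptf1a 209 ± 22.9 in WT. On the exon scale Rbpjl ranked 5 of 8 in S6k2_RK, 4 in Snd1_KI and 3 in WT. In S6k2_RK it stood level with Foxa2 (85.3 ± 10.5 against 85.4 ± 19.3). Per kilobase of the longest coding transcript Rbpjl ranked 3 in S6k2_RK, 3 in Snd1_KI and 2 in WT.

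**Figure D2:**
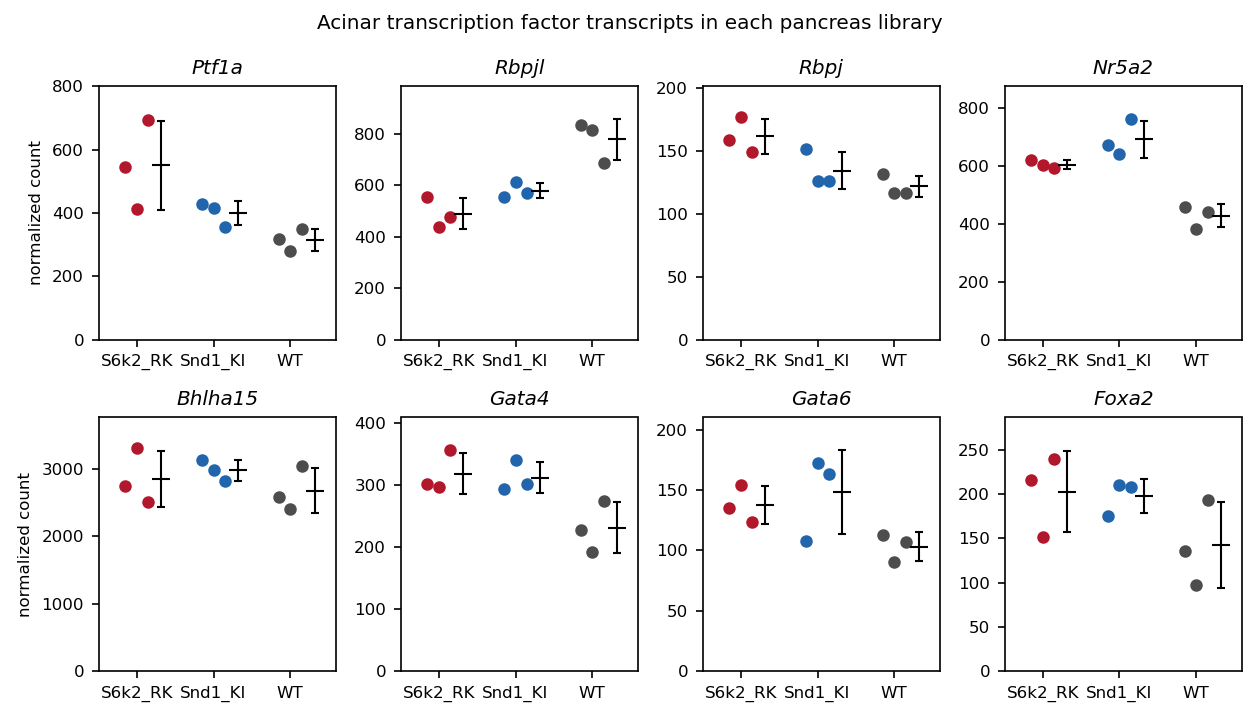
Normalized counts (y axis, linear, from 0) of the 8 members in the 3 libraries of S6k2_RK, Snd1_KI and WT, with 1 point per mouse and the mean ± SD beside the points. Rbpjl is the member whose 3 WT libraries, at 686 to 833, all lie above every mutant library.

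Rbpjl, the RBPJ-type subunit of mature acinar PTF1, was lower in both mutants. Its normalized counts were 555, 436 and 476 in S6k2_RK and 554, 613 and 570 in Snd1_KI, against 833, 815 and 686 in WT. Every mutant library lay below every WT library, while the S6k2_RK and Snd1_KI libraries overlapped at their edge. In S6k2_RK Rbpjl fell, with a log2 fold change against WT of -0.67 and a standard error (SE) of 0.12 (limma adjusted p = 0.00112). The means were 489 ± 60.4 in S6k2_RK and 778 ± 80.1 in WT (SD, n = 3 each), so that S6k2_RK stood at 0.628 times the WT level. It also fell in Snd1_KI, at a log2 fold change of -0.42 ± 0.12 (value ± SE here and below, limma adjusted p = 0.0414), with a mean of 579 ± 30.7 in Snd1_KI (SD, n = 3) and 0.747 times the WT level. The S6k2_RK call held in 22 of 22 alternative analyses. Not all of them could turn its direction. Count filters and the replicate block left the fold change unchanged. Equal totals and scaling on acinar secretory genes moved the median tested gene down. The Snd1_KI value was negative in all 22 but was called in 15: the call was lost without WT replicate 1 or 2 or without any 1 Snd1_KI replicate (adjusted p up to 0.165), with a higher count filter and with replicate number as a block.

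Ptf1a, the pancreas-specific bHLH subunit, was measured at 545, 412 and 695 normalized counts in S6k2_RK and at 428, 417 and 356 in Snd1_KI, against 318, 280 and 349 in WT. All 6 mutant libraries lay above the 3 WT libraries, and for this gene the S6k2_RK libraries were more scattered than those of Snd1_KI or WT (coefficient of variation 25.7%, where read counting alone gives 4.74%). Under the authors' scaling Ptf1a rose in S6k2_RK, at a log2 fold change of 0.77 ± 0.16 (limma adjusted p = 0.00336), but with all libraries brought to 1 total the value was 0.26 and not called (adjusted p = 0.172). In Snd1_KI the log2 fold change was 0.34 ± 0.16 and did not pass (adjusted p = 0.225). The gene annotated on the opposite strand, Ptf1aos, had at most 5.90 normalized counts in any library.

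Rbpj, which RBPJL replaces in mature acinar cells, had 159, 177 and 150 normalized counts in S6k2_RK and 152, 126 and 126 in Snd1_KI, against 132, 117 and 117 in WT. The S6k2_RK and WT libraries did not overlap, whereas Snd1_KI and WT did. Neither difference passed the test: the log2 fold change was 0.40 ± 0.15 in S6k2_RK (limma adjusted p = 0.0806) and 0.14 ± 0.15 in Snd1_KI (adjusted p = 0.654). A pseudogene, Rbpj-ps3, was listed at 24.2 to 30.9 normalized counts in S6k2_RK, 20.1 to 23.5 in Snd1_KI and 16.2 to 22.6 in WT, and how reads that match both genes were assigned is not given in the sources used here.

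The balance of the transcripts for the RBPJ-type subunits was then read within each library, where the size factor cancels. These transcripts come from whole pancreas, and the part of other cell types in them was not tested. The ratio of Rbpjl to Rbpj, each per kilobase of exon, was 7.76, 5.48 and 7.08 in S6k2_RK and 8.13, 10.8 and 10.05 in Snd1_KI, against 14.1, 15.5 and 13.0 in WT. The 3 groups did not overlap, with means of 6.77 ± 1.17 in S6k2_RK, 9.66 ± 1.38 in Snd1_KI and 14.2 ± 1.22 in WT (SD, n = 3 each). The ratio of Rbpjl to Ptf1a was 0.242 ± 0.0539 in S6k2_RK, 0.383 ± 0.0403 in Snd1_KI and 0.658 ± 0.127 in WT, again with no overlap between groups. By contrast the ratio of Gata4 to Gata6 overlapped in all groups, at 3.92 ± 0.817 in S6k2_RK, 3.63 ± 0.776 in Snd1_KI and 3.73 ± 0.473 in WT. The size of a ratio depends on the gene model: per kilobase of the longest coding transcript, Rbpjl in WT stood above Ptf1a (317 ± 32.6 against 209 ± 22.9). These ratios were chosen with the values of the members known and are given as a description.

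**Figure D3:**
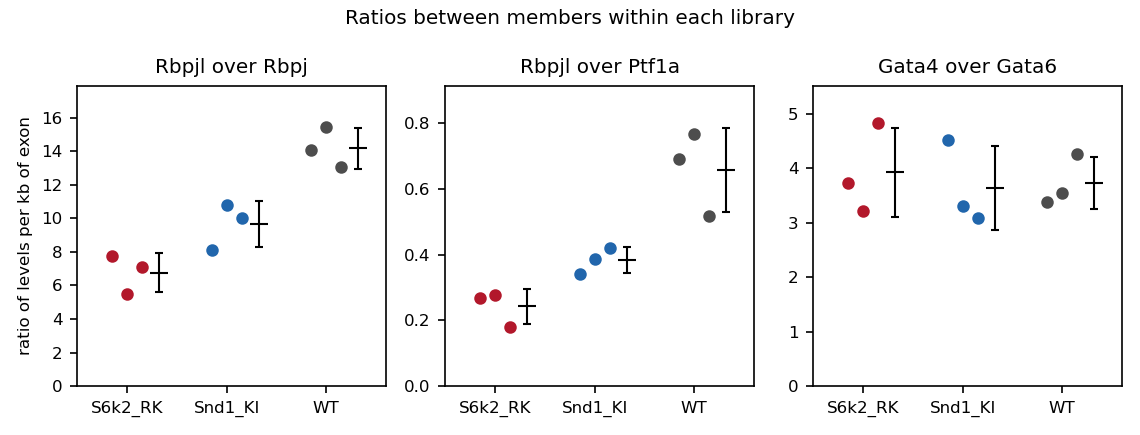
Ratios of 2 members within a library, each per kilobase of exon (y axis, linear, from 0), for S6k2_RK, Snd1_KI and WT, with 1 point per mouse and the mean ± SD. Rbpjl over Rbpj runs from 5.48 to 7.76 in S6k2_RK, 8.13 to 10.8 in Snd1_KI and 13.0 to 15.5 in WT, whereas Gata4 over Gata6 overlaps in all groups.

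Nr5a2, the nuclear receptor partner of PTF1, differed from WT in the opposite direction to Rbpjl. It had 620, 601 and 591 normalized counts in S6k2_RK and 671, 639 and 762 in Snd1_KI, against 458, 383 and 442 in WT. No mutant library overlapped WT, and every Snd1_KI library lay above every S6k2_RK library. In Snd1_KI Nr5a2 rose on the log2 scale by 0.69 ± 0.11 (limma adjusted p = 0.00141), and it remained called with equal totals (0.41, adjusted p = 0.0432) but not when libraries were scaled on acinar secretory genes (0.34, adjusted p = 0.103). In S6k2_RK it rose by 0.50 ± 0.11 under the authors' scaling (adjusted p = 0.00641), a direction that turned with equal totals (-0.018) and with the acinar gene scaling (-0.13). The 3 S6k2_RK libraries varied by 2.41%, within the 4.44% that counting alone gives.

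Bhlha15, the bHLH factor of the secretory apparatus, had 2738, 3309 and 2506 normalized counts in S6k2_RK and 3132, 2981 and 2820 in Snd1_KI, against 2577, 2409 and 3046 in WT. All groups overlapped, and the log2 fold changes of 0.088 ± 0.12 in S6k2_RK (limma adjusted p = 0.671) and 0.16 ± 0.12 in Snd1_KI (adjusted p = 0.472) did not pass. As a share of the library it was called lower in S6k2_RK, where 49.8% of tested genes were called lower with equal totals and 63% with libraries scaled on acinar secretory genes. Its log2 fold change was -0.43 with equal totals (adjusted p = 0.0104) and -0.55 with the acinar gene scaling (adjusted p = 0.00245), beside -0.51 and -0.62 for the median tested gene. The same scalings gave -0.13 and -0.20 in Snd1_KI, neither called.

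The endodermal factors were higher on average in both mutants under the authors' scaling, but 1 of their 6 differences from WT passed the test. Gata4 had 302, 298 and 357 normalized counts in S6k2_RK and 294, 342 and 303 in Snd1_KI, against 228, 192 and 274 in WT. Both mutants lay above WT without overlap. Gata4 rose in S6k2_RK by 0.47 ± 0.14 under the authors' scaling (limma adjusted p = 0.0349), and turned to -0.046 with equal totals and -0.16 with the acinar gene scaling. Its call was lost without WT replicate 1 or 2 or S6k2_RK replicate 3 (adjusted p up to 0.155). The call was also lost with just S6k2_RK and WT in the limma fit (adjusted p = 0.0687). In Snd1_KI its log2 fold change of 0.44 ± 0.14 did not pass (adjusted p = 0.0738), though it did without WT replicate 3 (0.58, adjusted p = 0.0254).

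Gata6 had 135, 154 and 124 normalized counts in S6k2_RK and 108, 173 and 164 in Snd1_KI, against 113, 90.1 and 107 in WT. S6k2_RK lay above WT, while Snd1_KI replicate 1 stood with the WT libraries. The log2 fold change was 0.41 ± 0.18 in S6k2_RK (limma adjusted p = 0.151) and 0.49 ± 0.18 in Snd1_KI (adjusted p = 0.126), and without Snd1_KI replicate 1 the Snd1_KI value was 0.70 and called (adjusted p = 0.0384). Gata6os, on the opposite strand, was listed at 13.4 to 20.99 normalized counts in S6k2_RK, 10.7 to 25.6 in Snd1_KI and 20.7 to 29.7 in WT, and whether the counting used strand is not given in the sources used here.

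Foxa2, a forkhead pioneer factor that acinar, ductal and islet cells share, had 216, 152 and 240 normalized counts in S6k2_RK and 176, 211 and 207 in Snd1_KI, against 136, 97.3 and 194 in WT. The groups overlapped through WT replicate 3 and S6k2_RK replicate 2, and the WT libraries varied by 34.1%, the widest spread of any member in any group, where counting alone gives 8.25%. Its log2 fold change of 0.53 ± 0.21 in S6k2_RK did not pass (limma adjusted p = 0.105), nor did that of 0.52 ± 0.21 in Snd1_KI (adjusted p = 0.162). WT replicate 2 was the lowest WT library for 6 of the 8 members, Foxa2 among them. Both Foxa2 differences passed without WT replicate 3, at 0.78 in S6k2_RK (adjusted p = 0.0190) and 0.77 in Snd1_KI (adjusted p = 0.0303), and S6k2_RK also without S6k2_RK replicate 2 (0.73, adjusted p = 0.0391).

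In all, 4 of the 8 members were called in S6k2_RK against WT, where 12% of the 11953 tested genes were called by limma. Ptf1a, Nr5a2 and Gata4 were higher under the authors' scaling, where 5.2% of tested genes were called higher, and Rbpjl was lower, where 6.83% were. In Snd1_KI 2 of the 8 were called, Nr5a2 higher and Rbpjl lower, where 5.61% of tested genes were called (2.4% higher and 3.2% lower). The S6k2_RK and WT libraries did not overlap for 6 members, against 28.3% of tested genes, and the Snd1_KI and WT libraries for 4, against 27.1%. Under the authors' scaling the median log2 fold change of the members was 0.44 in S6k2_RK and 0.39 in Snd1_KI, beside 0.0024 and 0.0027 over all tested genes. That median near 0 depends on the scaling: with equal totals it was -0.51 in S6k2_RK and -0.28 in Snd1_KI. The 2 comparisons share the 3 WT mice. Since the members were chosen with earlier results of these data known, the shares over all tested genes are given as a description and not as a test.

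**Figure D4:**
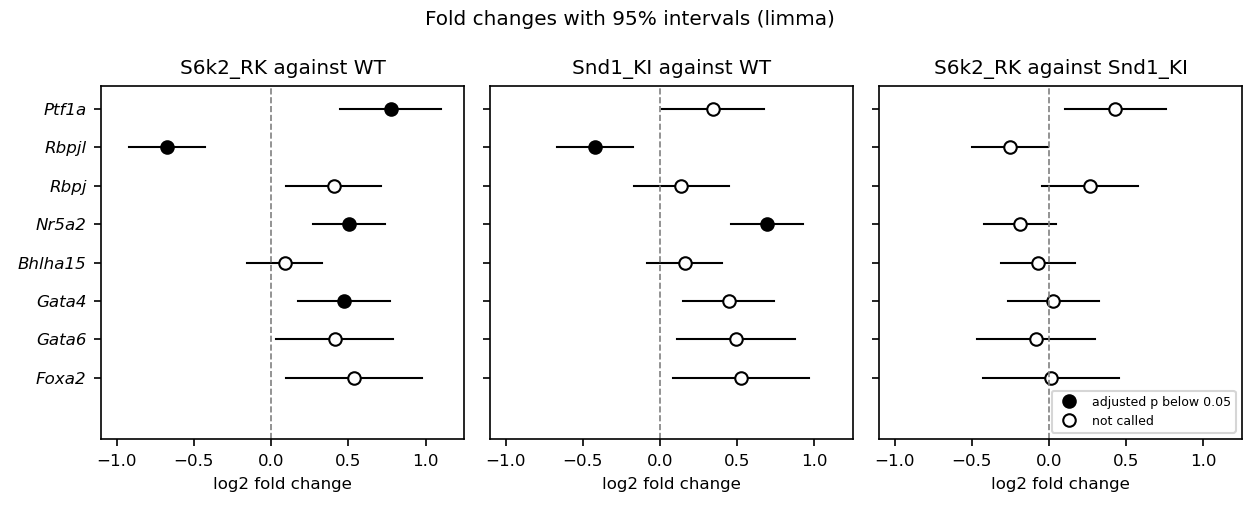
Log2 fold changes of the 8 members with 95% intervals (x axis) for S6k2_RK against WT, Snd1_KI against WT and S6k2_RK against Snd1_KI, from limma under the authors' scaling, with filled points where the adjusted p is below 0.05. Rbpjl alone lies below 0 in both comparisons with WT, and no member is called between the mutants.

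Between the mutants no member passed the test: limma, edgeR and DESeq2 each called 0 of 8, and 2 had an unadjusted limma p below 0.05. Over all tested genes 0.117% were called between S6k2_RK and Snd1_KI, and 10.1% had such an unadjusted p. Those 2 were Ptf1a, with a log2 fold change of 0.43 (95% interval 0.10 to 0.76, adjusted p = 0.334), and Rbpjl, with -0.25 (95% interval -0.50 to -0.0032, adjusted p = 0.488). Nr5a2, at -0.19 (adjusted p = 0.589), was the 1 member whose libraries did not overlap between the mutants, against 15.2% of tested genes. Rbpj stood at 0.27 (adjusted p = 0.565). For the other members the intervals spanned 0 widely: -0.31 to 0.17 for Bhlha15, -0.27 to 0.32 for Gata4, -0.46 to 0.30 for Gata6 and -0.43 to 0.45 for Foxa2.

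In S6k2_RK 5 of the 8 members changed direction when all libraries were set to equal totals and 6 when they were scaled on acinar secretory genes, against 2 and 3 in Snd1_KI. The authors' size factors left the median tested gene unmoved, while setting all libraries to equal totals shifted it by -0.51 in S6k2_RK and -0.28 in Snd1_KI. The acinar secretory genes took 67.0% ± 0.791 of all counts in S6k2_RK and 66.4% ± 0.429 in Snd1_KI, against 63.5% ± 0.724 in WT (mean ± SD, n = 3 each), and scaling on the median ratio of those genes moved the median tested gene by -0.62 in S6k2_RK and -0.35 in Snd1_KI. Under the equal-total and the acinar gene scaling Rbpjl reached -1.19 and -1.31 in S6k2_RK (adjusted p = 1.6e-05 and 1.8e-05), and -0.71 and -0.78 in Snd1_KI (adjusted p = 0.00417 and 0.00478). In S6k2_RK each of these scalings then called 2 members, Rbpjl and Bhlha15, both lower, and 0 higher, a smaller share of the 8 than the 49.8% and 63% of tested genes called lower. In Snd1_KI Rbpjl was the 1 member called lower under each, where 13.2% of tested genes were with equal totals and 17.1% with the acinar gene scaling, and Nr5a2 was called higher with equal totals, where 0.376% were. Together the 8 members took 0.0286% ± 0.00333 of all counts in S6k2_RK and 0.0343% ± 0.00113 in Snd1_KI, against 0.0368% ± 0.00298 in WT.

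**Figure D5:**
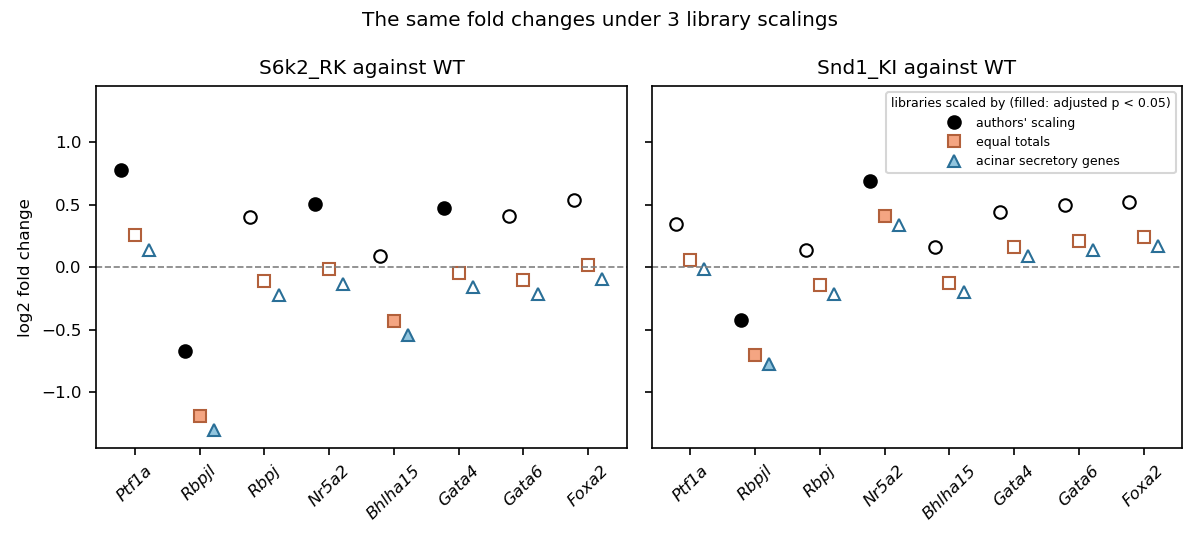
Log2 fold changes (y axis) of the 8 members in S6k2_RK against WT and Snd1_KI against WT under the authors' scaling, equal totals and the median ratio of acinar secretory genes, with filled symbols where the limma adjusted p is below 0.05. Rbpjl is below 0 under each scaling in both mutants, whereas Nr5a2 in S6k2_RK is 0.50 under the authors' scaling, -0.018 with equal totals and -0.13 with the acinar gene scaling. The equal-total and acinar gene scalings move the median tested gene down, so they could not turn a gene that was already lower.

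The partners and outputs of the circuit were read from gene lists, whose counts stand beside these shares of all tested genes. Under the authors' scaling 5.2% were called higher and 6.83% lower in S6k2_RK, and 2.4% and 3.2% in Snd1_KI. With equal totals 49.8% were called lower in S6k2_RK and 13.2% in Snd1_KI. Among bHLH partners and inhibitors 6 of 7 genes were tested: in S6k2_RK 0 were higher and 2 lower, and in Snd1_KI 0 were higher and 1 lower, while with equal totals 4 were lower in S6k2_RK and 3 in Snd1_KI. Tcf3, which encodes the E proteins E12 and E47 that pair with PTF1A, had 96.5 ± 7.47 normalized counts in S6k2_RK and 91.8 ± 9.02 in Snd1_KI, against 138 ± 8.80 in WT, and fell in both, with log2 fold changes of -0.51 ± 0.16 in S6k2_RK (limma adjusted p = 0.0410) and -0.58 ± 0.16 in Snd1_KI (adjusted p = 0.0352). Id3, an inhibitor that sequesters E proteins, had 50.5 ± 37.4 in S6k2_RK and 44.0 ± 9.75 in Snd1_KI, against 95.02 ± 22.9 in WT, and was called lower in S6k2_RK at the edge of the threshold (-1.12 ± 0.36, adjusted p = 0.0499). The Tcf3 call in S6k2_RK was lost in 7 of 9 fits that left out 1 library, and in Snd1_KI in 6 of 9. The Id3 call in S6k2_RK was lost in 8 of 9.

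Of 20 genes of the Notch and RBPJ pathway 19 were tested, with 2 higher and 0 lower in S6k2_RK and 1 higher and 0 lower in Snd1_KI under the authors' scaling, while equal totals gave 0 higher and 12 lower in S6k2_RK and 1 higher and 1 lower in Snd1_KI. Heyl, a hairy-related repressor downstream of Notch, had 82.4 ± 16.7 normalized counts in S6k2_RK and 94.9 ± 25.8 in Snd1_KI, against 46.6 ± 10.8 in WT. It rose by 0.81 ± 0.23 in S6k2_RK (limma adjusted p = 0.0284) and by 1.00 ± 0.23 in Snd1_KI (adjusted p = 0.0159). The S6k2_RK call was lost in 4 of 9 fits that left out 1 library (without WT replicate 2 or 3 or S6k2_RK replicate 2 or 3), with equal totals (0.30) and with the acinar gene scaling (0.19). The Snd1_KI call was lost in 2 of 9 (without WT replicate 2 or Snd1_KI replicate 2) and with the acinar gene scaling (0.65). Jag1, a Notch ligand, rose in S6k2_RK by 0.54 ± 0.17 under the authors' scaling (adjusted p = 0.0490), a call lost in 8 of 9 fits without 1 library, and stood at -0.091 with the acinar gene scaling. Under the authors' scaling the 4 Notch receptors and the target Hes1 were not called.

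Among NR5A2 partners 7 of 9 genes were tested, with 0 higher and 1 lower in S6k2_RK and 0 either way in Snd1_KI, while with equal totals 5 were lower in S6k2_RK and 1 in Snd1_KI. Ncoa3, a nuclear receptor coactivator, had 77.8 ± 12.2 normalized counts in S6k2_RK and 115 ± 5.49 in Snd1_KI, against 164 ± 10.1 in WT. It fell in S6k2_RK, at a log2 fold change of -1.07 ± 0.16 (limma adjusted p = 0.000278), a call that held in each fit without 1 library, and its Snd1_KI value of -0.51 ± 0.16 did not pass (adjusted p = 0.0705). Of the GATA family and cofactors 2 of 6 were tested and 0 called (1 lower in S6k2_RK with equal totals): Zfpm1, which encodes a FOG cofactor, had log2 fold changes of 0.47 ± 0.21 in S6k2_RK (adjusted p = 0.152) and 0.49 ± 0.21 in Snd1_KI (adjusted p = 0.187), and Gata2 of -0.57 ± 0.32 (adjusted p = 0.269) and -0.58 ± 0.32 (adjusted p = 0.331). Of 12 endodermal and pancreatic transcription factors 8 were tested and 0 called, with median log2 fold changes of 0.47 in S6k2_RK and 0.42 in Snd1_KI under the authors' scaling, against -0.047 (1 called lower) and 0.14 with equal totals. Hnf4a, a hepatocyte nuclear factor, was at 0.51 ± 0.18 in S6k2_RK (adjusted p = 0.0662) and 0.37 ± 0.18 in Snd1_KI (adjusted p = 0.250), and Foxa3 at 0.43 ± 0.15 (adjusted p = 0.0702) and 0.46 ± 0.15 (adjusted p = 0.0836).

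The outputs of the circuit were higher in more cases under the authors' scaling. Of 7 genes that regulate BHLHA15 or are its targets, 4 were higher and 0 lower in S6k2_RK and 1 higher and 0 lower in Snd1_KI, while with equal totals 0 were higher and 1 lower in S6k2_RK and 0 either way in Snd1_KI. Xbp1, the unfolded protein response factor that activates Bhlha15, had 4806 ± 555 normalized counts in S6k2_RK and 3942 ± 127 in Snd1_KI, against 3294 ± 107 in WT (0.54 ± 0.10 in S6k2_RK, limma adjusted p = 0.00167). Rab3d, a zymogen granule GTPase and BHLHA15 target, had 2632 ± 251 in S6k2_RK and 2511 ± 102 in Snd1_KI, against 1911 ± 89.3 in WT (0.46 ± 0.098 in S6k2_RK, adjusted p = 0.00523, and 0.39 ± 0.098 in Snd1_KI, adjusted p = 0.0238), and its Snd1_KI call was lost in 5 of 9 fits without 1 library and with equal totals (0.11). Copz2, a coatomer subunit, and Atp2c2, a Golgi calcium pump, were also called, at 0.41 ± 0.10 (adjusted p = 0.0133) and 0.49 ± 0.16 (adjusted p = 0.0499) in S6k2_RK. Without 1 library the Copz2 call was lost in 3 of 9 fits and that of Atp2c2 in 7 of 9, and Atp2c2 was not called by edgeR or DESeq2. With equal totals Rab3d, Copz2 and Atp2c2 stood at -0.062, -0.11 and -0.029 in S6k2_RK, and Xbp1 at -0.096 with the acinar gene scaling.

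Of 22 acinar secretory genes 10 were higher and 1 lower in S6k2_RK and 2 higher and 0 lower in Snd1_KI under the authors' scaling, while equal totals gave 3 higher and 1 lower in S6k2_RK and 1 higher and 1 lower in Snd1_KI. Pnliprp2, a pancreatic lipase, rose by 0.94 ± 0.15 in S6k2_RK (limma adjusted p = 0.000424) and by 0.75 ± 0.15 in Snd1_KI (adjusted p = 0.00472). Pla2g1b, the secreted phospholipase, rose by 0.92 ± 0.13 in S6k2_RK (adjusted p = 0.000134) and 0.50 ± 0.13 in Snd1_KI (adjusted p = 0.0258), where the call was lost in 5 of 9 fits without 1 library, with equal totals (0.21) and with the acinar gene scaling (0.14). The acinar gene scaling is built on these 22 genes and sets their median near 0, so it is no independent check of them. Sycn, a zymogen granule membrane protein, rose in S6k2_RK by 0.80 ± 0.14 (adjusted p = 0.00135) and had 0.16 ± 0.14 in Snd1_KI (adjusted p = 0.573). The 1 gene called lower was the elastase Cela3a, at -0.60 in S6k2_RK (adjusted p = 0.0239), a call lost in 4 of 9 fits without 1 library. It is named here after its value was seen. The paralogue Cela3b was at 0.57 ± 0.20 in S6k2_RK (adjusted p = 0.0633). In WT Cela3a had 327 ± 30.4 normalized counts and Cela3b 300302 ± 4631. How reads that match both genes were assigned is not given in the sources used here. Of 10 transcription factors known from acinar dedifferentiation 1 was called under the authors' scaling, Myc, which rose in S6k2_RK by 0.44 ± 0.13 (adjusted p = 0.0352) and stood at -0.082 with equal totals. Of this list equal totals gave 0 higher and 5 lower in S6k2_RK, where 49.8% of all tested genes were called lower, and 0 either way in Snd1_KI.

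Ground pancreas holds other cells too, and fewer cells of a type and less RNA per cell cannot be told apart in it. The T-cell markers summed to 30.0 to 35.9 normalized counts in S6k2_RK and 24.8 to 66.7 in Snd1_KI, against 270 to 760 in WT, and 10 of 10 were lower in both mutants. The B-cell markers summed to 59.4 to 142 in S6k2_RK and 135 to 162 in Snd1_KI, against 549 to 995 in WT, with 9 of 9 tested markers lower in both. Under the authors' scaling 3 of 12 ductal markers were higher in each mutant, 0 of 16 islet markers were called in either, 7 of 10 macrophage markers were lower in S6k2_RK and 1 in Snd1_KI, and 7 of 8 adipocyte markers were lower in S6k2_RK and 0 in Snd1_KI. Endothelial markers were lower for 3 of 10 in S6k2_RK and 2 in Snd1_KI, fibroblast and pericyte markers for 1 of 10 in each, and mesothelial markers were higher for 2 of 6 in Snd1_KI and 0 in S6k2_RK. With equal totals the lower calls were 7 islet markers in S6k2_RK and 5 in Snd1_KI, 10 and 6 macrophage, 8 and 0 adipocyte, 8 and 6 endothelial, and 5 and 2 fibroblast and pericyte markers. Of all tested genes that scaling called 49.8% lower in S6k2_RK and 13.2% in Snd1_KI. The ductal calls were then 1 higher and 1 lower in S6k2_RK and 1 higher in Snd1_KI, and the mesothelial 1 lower in S6k2_RK and 0 in Snd1_KI. Islet markers took 0.264% ± 0.0736 of counts in S6k2_RK and 0.250% ± 0.0798 in Snd1_KI, against 0.407% ± 0.0312 in WT (mean ± SD, n = 3 each). No marker of these lists was at 0 in all libraries of a group. The part of these cells in the values of Rbpjl, Tcf3 and the other factors was not tested.

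Each member was last set beside the gene whose values over the 9 libraries were most like its own, by the root mean square difference of log2 values centred on their mean, among 7976 genes with a mean of at least 50. Rbpjl lay nearest to Birc2 (0.0747), which encodes an inhibitor of apoptosis and averaged 117 ± 16.1 in S6k2_RK and 141 ± 12.4 in Snd1_KI, against 187 ± 31.1 in WT. Next to Rbpjl came Tnrc6a (0.0840), a microRNA silencing factor, and Zfp950 (0.0890). Nr5a2 lay nearest to Cpt1a (0.0789), the carnitine palmitoyltransferase of fatty acid oxidation, which averaged 506 ± 43.4 in S6k2_RK and 568 ± 53.4 in Snd1_KI, against 354 ± 25.4 in WT, then to Neo1 (0.0843) and Gstm1 (0.0890).

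Ptf1a lay nearest to Coq8a (0.103), a mitochondrial coenzyme Q kinase, then Efr3b (0.145) and Cited2 (0.153). Gata4 had the closest match of the 8, Ptprj (0.0537), a receptor tyrosine phosphatase, followed by Prkcsh (0.0560) and Clstn1 (0.0765). For Rbpj the nearest were P3h4, Osbp and Polr3k (0.0617 to 0.0768), for Bhlha15 Arid1a, Tars1 and Nf2 (0.0685 to 0.0743), for Gata6 Tmem98, Rab11fip1 and Cpsf3 (0.115 to 0.117), and for Foxa2 Wipf2, Lzts2 and Pgghg (0.136 to 0.155). No member was among the nearest genes of another: the closest pair was Gata4 and Foxa2 (0.176) and the farthest Ptf1a and Rbpjl (0.632). Leaving out 1 library kept 9 to 16 of these 24 genes.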

How the data were processed

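PolyA RNA of ground pancreas from 9 mice was sequenced as strand-specific paired-end libraries, per the labels' protocols. The authors deposited 1 table of normalized counts, a signal in which gene counts were divided by 1 size factor per library. DESeq2 and the builds GRCm38 and mm10 are named in the submitters' processing notes, while the aligner, the counting tool and the annotation behind the counts are not given in the sources used here. Every value was a whole multiple of 1 read (100% within 1e-06), so whole reads were recovered. For S6k2_RK replicate 1 that step was so near 1 that it cannot be told from rounding, and edgeR was also run without it, an alternative chosen after seeing the data.

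Groups were compared with limma (version 3.58.1, R 4.3.3) on log2(normalized count + 1), with a mean-variance trend, all 9 libraries in 1 fit, genes with a mean of at least 10, and a two-sided Benjamini-Hochberg adjusted p below 0.05 over 11953 genes. Fold changes on this scale are understated for low genes. A call rests on 3 mice a group, and exact tests of 3 against 3 cannot go below p = 0.1. Alternatives were other pseudocounts, filters and scalings (equal totals, TMM, acinar genes), array weights, fits on just 2 groups, each library left out, a replicate block, and edgeR 4.0.16 and DESeq2 1.42.0 on reads. The fit was tested on simulated data. Named genes are the members, the 3 genes nearest to each, up to 4 called genes of each pathway list (or the 2 most abundant), and the targeted genes. Members and lists were chosen with earlier results of these data known. Gene coordinates and exon lengths come from GENCODE mouse release 21.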

Additional observations from a re-analysis of the deposited data

Results flagged for a closer look

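Spink1, the trypsin inhibitor of acinar cells and 1 of the 22 acinar secretory genes, differed between the mutants. It had 6995 ± 1489 normalized counts in S6k2_RK and 4017 ± 435 in Snd1_KI (mean ± SD, n = 3 each), a log2 fold change of 0.79 ± 0.13 for S6k2_RK against Snd1_KI (SE, limma adjusted p = 0.0128). WT stood at 4205 ± 146. This call was lost without S6k2_RK replicate 3 or Snd1_KI replicate 2 (adjusted p up to 0.136) and with the acinar gene scaling (0.51, adjusted p = 0.0581). Which mutant differed from WT depended on the scaling. Under the authors' scaling Spink1 rose in S6k2_RK by 0.71 ± 0.13 (adjusted p = 0.00127) and the Snd1_KI value of -0.071 ± 0.13 did not pass (adjusted p = 0.807). With equal totals the S6k2_RK value was 0.19 and not called (adjusted p = 0.141), and Snd1_KI was called lower at -0.36 (adjusted p = 0.0396). The acinar gene scaling gave 0.079 in S6k2_RK (adjusted p = 0.548) and -0.43 in Snd1_KI (adjusted p = 0.0224). Spink1 is itself in the list behind that scaling, which sets the median log2 fold change of the list near 0 (-0.018 in S6k2_RK and 0.028 in Snd1_KI). That scaling is thus no independent check of Spink1 or of other genes of the list. Cela3a, an elastase of the same list, differed in the opposite direction, with 218 ± 39.6 normalized counts in S6k2_RK and 433 ± 96.7 in Snd1_KI (mean ± SD, n = 3 each) and a log2 fold change of -0.98 ± 0.16 for S6k2_RK against Snd1_KI (SE, limma adjusted p = 0.0153). WT stood at 327 ± 30.4. That call was lost without S6k2_RK replicate 3 or Snd1_KI replicate 1 or 2 (adjusted p up to 0.157), and the value was -1.21 with equal totals and -1.26 with the acinar gene scaling, both called. The paralogue Cela3b had 449641 ± 62345 normalized counts in S6k2_RK, 364353 ± 44538 in Snd1_KI and 300302 ± 4631 in WT. Between the mutants Cela3b stood at 0.30 ± 0.20 (SE, limma adjusted p = 0.629). How reads that match both elastase genes were assigned is not given in the sources used here, and their part in the Cela3a values was not tested. No member of the 8 transcription factors differed between the mutants by this test.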

How the results depend on the processing

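Rbpjl kept its direction in both mutants under all 22 alternatives, and no member was called between the mutants under any of them. Count filters and the replicate block could not turn the direction of Rbpjl, since they leave the fold change unchanged. Nor could equal totals or the acinar gene scaling, which moved the median tested gene down. With equal totals S6k2_RK against WT had 2 members called of 8 and 5991 genes (37 higher, 5954 lower, beside 1437 under the authors' scaling, 621 higher and 816 lower), Snd1_KI against WT 1626 genes (45 higher, 1581 lower, beside 670, 287 higher and 383 lower) and S6k2_RK against Snd1_KI 35 genes beside 14. With libraries scaled on acinar secretory genes these counts were 2 members and 7548 genes (18 higher, 7530 lower), 1 member and 2072 genes (26 higher, 2046 lower), and 43 genes. A mean of at least 50, which no T-cell marker reached, gave 1 member and 409 genes in Snd1_KI against WT, array weights 1128 genes there and 40 between the mutants, DESeq2 53 between the mutants, and edgeR without S6k2_RK replicate 1 gave 70. The causes were not tested.

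Leaving out 1 library gave 753 to 1872 genes and 3 to 5 members in S6k2_RK against WT, 213 to 832 genes and 1 to 4 members in Snd1_KI against WT, and 4 to 85 genes between the mutants. The lowest counts came without S6k2_RK replicate 3 (753) and without WT replicate 2 (213), and the 85 genes without S6k2_RK replicate 1. The same replicate number did not mark related libraries: deviations of same-numbered libraries correlated between -0.078 and 0.045 across 11953 genes. With the replicate block 1 member was called in Snd1_KI against WT, Rbpjl losing its call (-0.42, adjusted p = 0.0547).

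Directions that turned are these log2 fold changes. With equal totals, in S6k2_RK against WT, Atp2c2 stood at -0.029, Bhlha15 -0.43, Copz2 -0.11, Foxa3 -0.084, Gata4 -0.046, Gata6 -0.10, Hnf4a -0.010, Myc -0.082, Nr5a2 -0.018, Rab3d -0.062, Rbpj -0.11, Snd1 -0.039 and Zfpm1 -0.050. In Snd1_KI against WT that scaling gave Bhlha15 -0.13, Myc -0.26, Rbpj -0.14, Sycn -0.12 and Xbp1 -0.026, and between the mutants Foxa2 -0.22 and Gata4 -0.21. Scaling on acinar secretory genes, in S6k2_RK against WT, gave Atp2c2 -0.14, Bhlha15 -0.55, Copz2 -0.23, Foxa2 -0.096, Foxa3 -0.20, Gata4 -0.16, Gata6 -0.22, Hnf4a -0.12, Jag1 -0.091, Myc -0.20, Nr5a2 -0.13, Rab3d -0.18, Rbpj -0.23, Snd1 -0.15, Xbp1 -0.096 and Zfpm1 -0.16. In Snd1_KI against WT it gave Bhlha15 -0.20, Copz2 -0.054, Myc -0.33, Ptf1a -0.012, Rbpj -0.22, Sycn -0.19 and Xbp1 -0.097, and between the mutants Foxa2 -0.27, Gata4 -0.25 and Rbpj -0.011. With 1 library left out Bhlha15 ranged from -0.024 to 0.18 in S6k2_RK against WT and from -0.18 to 0.017 between the mutants, Foxa2 from -0.12 to 0.20, Gata4 from -0.056 to 0.093 and Gata6 from -0.29 to 0.042 between the mutants, and Myc from -0.021 to 0.091 and Spink1 from -0.12 to 0.022 in Snd1_KI against WT. Foxa2 between the mutants was also -0.019 by edgeR without S6k2_RK replicate 1.

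The members had 100 to 3849 reads per library, so counting error is largest for Gata6 and Rbpj, and 3 mice a group limit what can be called: a difference that was not called is not shown to be absent.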
